A study of Mus musculus with 24 samples.

Results

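Lin28a, Lin28b, Trim71 and L1td1 encode RNA-binding proteins of embryonic stem cells (ESCs). They were followed over differentiation of mouse ESCs that lack Eed, a core subunit of the Polycomb repressive complex PRC2, and of wild-type (WT) ESCs. The 4 genes were chosen by name, with earlier results of these data known. Each is the only gene symbol of 1 probe set on the array (Lin28a 10517159, Lin28b 10368981, Trim71 10597427, L1td1 10506110), and they are 4 of 19938 genes with a probe set of their own. The genes lie on mouse chromosomes 4 (Lin28a and L1td1), 10 (Lin28b) and 9 (Trim71).

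RNA from 24 samples was hybridised to Affymetrix Mouse Gene 1.0 ST arrays. The Eed knockout (KO) arrays came from clones of the lines E14 and J1, and the WT arrays from clones of the lines J1 and V6.5. Each of the 4 clones gave 2 arrays on days 0, 3 and 7 of differentiation, so each genotype had 4 arrays on a day. Day 0 samples were undifferentiated ESCs, which were grown with LIF, a cytokine that maintains self-renewal, on mitomycin C-inactivated mouse embryonic fibroblasts (MEFs). Samples of days 3 and 7 were embryoid bodies (EBs), aggregates formed in hanging drops from ESCs depleted of MEFs, without LIF. A genotype is therefore represented by 2 clones, J1 is the only line present in both genotypes, and the labels do not say whether repeat arrays of a clone came from separate cultures. The p-values accordingly measure the spread between these arrays, which may be technical.

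LIN28A and LIN28B bind precursors of the let-7 family of microRNAs and block their maturation. Mature let-7 microRNAs repress LIN28 mRNAs in turn, together with those of growth regulators such as Hmga2 and with Trim71, the mouse homologue of the nematode heterochronic gene lin-41. TRIM71 is an RNA-binding protein with a RING domain that represses mRNAs of differentiation and cell-cycle genes. L1TD1 is an RNA-binding protein that evolved from the first open reading frame of a LINE-1 retrotransposon, and it is expressed in pluripotent cells.

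The mature let-7 sequences are shown because they define the target family that links LIN28, TRIM71 and the target genes described further on. All 9 mature 5p sequences that RefSeq (build GRCm38.p6) gives for 11 let-7 genes share 1 seed, bases 2 to 8, written in capitals (5′ to 3′).
let-7a-5p: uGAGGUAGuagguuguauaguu
let-7b-5p: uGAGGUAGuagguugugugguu
let-7c-5p: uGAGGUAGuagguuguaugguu
let-7d-5p: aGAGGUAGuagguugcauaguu
let-7e-5p: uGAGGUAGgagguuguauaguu
let-7f-5p: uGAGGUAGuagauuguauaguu
let-7g-5p: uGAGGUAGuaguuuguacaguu
let-7i-5p: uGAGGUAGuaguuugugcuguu
miR-98-5p: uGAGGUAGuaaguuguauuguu
The members differ from one another outside the seed, and let-7d differs also in its first base.

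The targeted gene was examined first. Eed averaged 7.29 ± 0.20 in KO ESCs, against 10.73 ± 0.32 in WT ESCs on day 0 (log2 RMA values, SD, n = 4 each), and its KO minus WT difference was -3.44, -3.69 and -3.23 on days 0, 3 and 7 (limma adjusted p = 2.7e-09, 3.3e-10 and 9.2e-10). No KO array reached the WT range on any day. The sources used here do not state how the Eed probe set lies relative to the altered part of the gene. Markers of pluripotent cells (Pou5f1, Nanog, Sox2, Zfp42, Utf1, Tdgf1 and Dppa4) averaged 11.71 to 11.91 in KO ESC arrays, against 11.57 to 11.69 in WT ESC arrays, so the day 0 samples carried the markers of their labelled cell type. Fibroblast markers on day 0 were higher in KO ESC arrays (8.23 to 9.46) than in WT ESC arrays (7.69 to 8.12). Their part in differences on day 0 and changes from day 0 was not tested. On day 7 the same list averaged 10.80 to 11.49 in KO EBs, against 7.60 to 8.59 in WT EBs, and all 7 genes were called higher in KO, as 3.08% of all genes were.

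A pair of repeat arrays stood apart. The 2 WT J1 arrays of day 7 correlated at r = 0.962 over all genes and differed by at least 2-fold in 1256 genes, whereas the other 11 pairs correlated at 0.99 or more, with 21 to 163 such genes. Replicate 1 of that pair was higher than replicate 2 in neural markers (8.59 and 6.97) and pluripotent markers (8.59 and 7.60), and lower in primitive blood markers (10.34 and 11.99), endoderm markers (7.53 and 9.47), fibroblast markers (8.19 and 9.37) and cardiac markers (7.66 and 8.77). In germ cell markers they were close (6.15 and 6.17). Differences and changes of Lin28a, Lin28b and Trim71 that rest on WT EBs of day 7 are therefore also given without either of these arrays. Correlations are given over all 24 arrays only, with both of them included. In the text that follows a difference is on the log2 scale, so that 1 is 2-fold, and it is called where the Benjamini-Hochberg adjusted p over all 19938 genes is below 0.05 and the change is at least 2-fold.

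**Figure D1:**
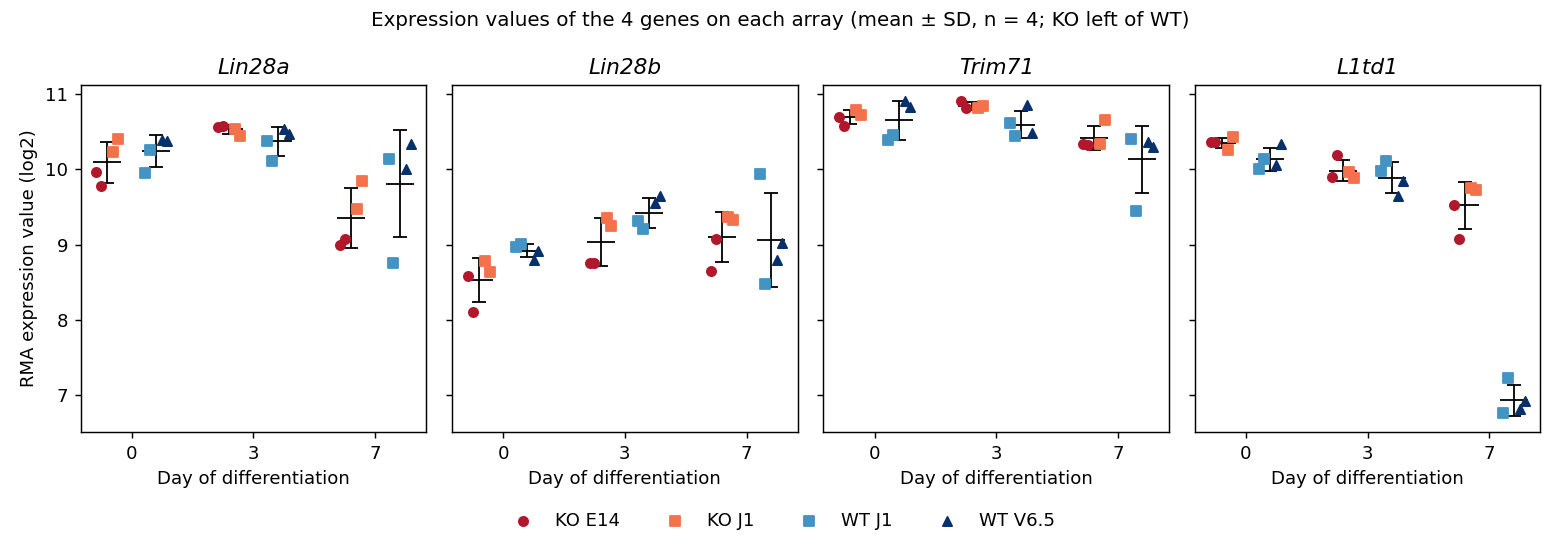
Log2 RMA expression value of each gene (vertical axis) on days 0, 3 and 7 (horizontal axis), with KO arrays left of WT arrays; each point is 1 array, and black bars give the mean ± SD of 4 arrays. L1td1 on day 7 lay between 9.07 and 9.75 in KO EBs and between 6.76 and 7.23 in WT EBs, and the WT J1 arrays of day 7 lay far apart for Lin28a, Lin28b and Trim71.

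Of the 4 genes, L1td1 was the one whose level on day 7 was called different between genotypes. L1td1 was 6.01-fold higher in KO EBs than in WT EBs, after a KO change between days 3 and 7 that stayed under 2-fold and a fall in WT cells over the same days that was called. On days 0 and 3 no genotype difference was called for any of the 4 genes.

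L1td1 had values of 10.36 and 10.36 in KO E14 ESCs and 10.26 and 10.43 in KO J1 ESCs, against 10.00 and 10.13 in WT J1 ESCs and 10.06 and 10.34 in WT V6.5 ESCs. On day 3 it had 9.90 and 10.19 in KO E14 EBs and 9.96 and 9.88 in KO J1 EBs, against 9.97 and 10.11 in WT J1 EBs and 9.65 and 9.84 in WT V6.5 EBs. The ranges of the 2 genotypes overlapped on both days. On day 7 L1td1 had 9.53 and 9.07 in KO E14 EBs and 9.75 and 9.72 in KO J1 EBs, against 6.76 and 7.23 in WT J1 EBs and 6.82 and 6.92 in WT V6.5 EBs. Every KO array of day 7 lay above every WT array, with no overlap, a pattern that 16.8% of all genes showed in either direction on that day.

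The means on day 7 were 9.52 ± 0.31 in KO EBs and 6.93 ± 0.21 in WT EBs (SD, n = 4 each). The difference of 2.59 had a 95% interval of 2.27 to 2.91 (SE 0.155, limma adjusted p = 4.5e-11). On that day 4.36% of all genes were called, 3.08% as higher in KO, and L1td1 ranked 54 of 19938 from the highest difference. On day 0 the L1td1 difference was 0.22 (interval -0.10 to 0.54, adjusted p = 0.63 by limma), where 0.552% of genes were called. On day 3 it was 0.09 (interval -0.23 to 0.41, adjusted p = 0.92 by limma), where 0.757% were called.

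Within the line J1 alone, the KO minus WT difference of L1td1 on day 7 was 2.74 (SE 0.171, interval 2.38 to 3.10, limma adjusted p = 7.2e-09), in a comparison that called 4.29% of genes. It was 0.28 on day 0 and -0.12 on day 3 in the same line, with adjusted p-values of 0.56 and 0.84, where 0.456% and 1% of genes were called. The clones of a genotype lay closer together: the E14 KO minus J1 KO difference on day 7 was -0.43 (adjusted p = 0.22), and the V6.5 WT minus J1 WT difference was -0.12 (adjusted p = 0.73). The day 7 difference was called without either of the WT J1 arrays that stood apart, at 2.52 without replicate 1 and 2.68 without replicate 2.

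**Figure D2:**
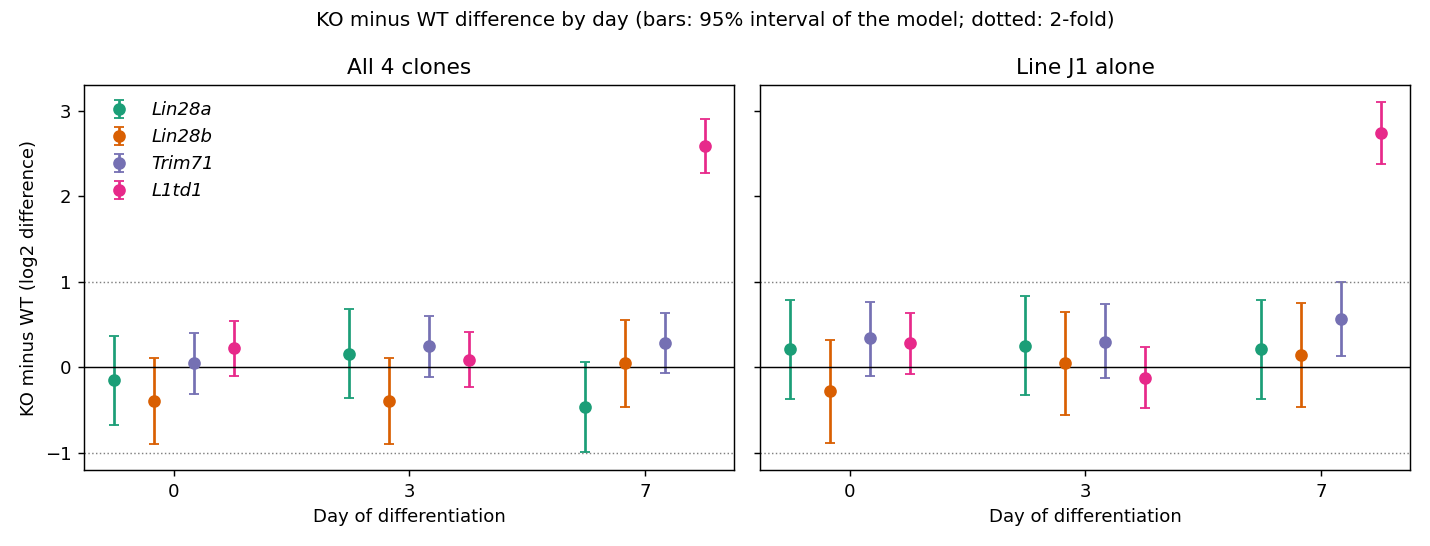
KO minus WT log2 difference of each gene (vertical axis) by day (horizontal axis), over all 4 clones on the left and within the line J1 on the right; bars are 95% intervals of the model and dotted lines mark a 2-fold difference. L1td1 on day 7, at 2.59 over all clones and 2.74 within J1, was the only point called, and the other intervals included 0 except that of Trim71 within J1 on day 7.

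In KO cells L1td1 changed by -0.46 between days 3 and 7 (interval -0.74 to -0.19, adjusted p = 0.025) and -0.83 over the whole course (interval -1.11 to -0.56, adjusted p = 1.0e-04). Both KO changes passed the p threshold, as 10.2% and 16.5% of all genes did, and neither reached 2-fold. Without the KO J1 clone, the KO change over the whole course was -1.06 and was called (adjusted p = 0.0029). The fall of L1td1 in WT cells came between days 3 and 7, at -2.96 (SE 0.132, limma adjusted p = 6.0e-14), where 2.45% of genes were called lower. The WT change over the whole course was -3.20 (limma adjusted p = 1.6e-14), where 3.89% were called lower, and that between days 0 and 3 was -0.24 (adjusted p = 0.31).

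The difference between these changes was itself tested. The KO change minus the WT change of L1td1 was 2.49 between days 3 and 7 (SE 0.186, limma adjusted p = 5.7e-09), in a comparison that called 1.36% of genes in that direction and 2.56% in all, and L1td1 ranked 19 from the highest. Over days 0 to 7 it was 2.36 (SE 0.186, limma adjusted p = 1.6e-08), where 1.93% were called in that direction and 3.38% in all. Over days 0 to 3 it was -0.13 (interval -0.51 to 0.26, limma adjusted p = 1), where 0.0502% of genes were called. Ordered by group mean, L1td1 descended through KO day 0 (10.35), WT day 0 (10.13), KO day 3 (9.98), WT day 3 (9.89), KO day 7 (9.52) and WT day 7 (6.93), and the only neighbours in that order whose array ranges did not overlap were the last pair.

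The 4 named genes with the most similar profile were Utf1, a chromatin-associated protein of pluripotent cells, Pgap6, Mkrn1, a ubiquitin ligase, and Pou5f1, the transcription factor OCT4, each with Pearson r = 0.97 over the 24 arrays. These correlations describe arrays that share clones and days, and L1td1 correlated less with Sox2 (0.88) and Nanog (0.87). On day 7 the KO minus WT difference was 3.31 for Utf1, 3.12 for Pou5f1, 2.09 for Mkrn1 and 1.63 for Pgap6. These 4 genes were picked by their likeness over the same arrays, so their differences are a description. The blood markers (Hbb-bh1, Hbb-y, Hba-x, Gata1 and Alas2) went the other way, at 5.69 to 6.41 in KO EBs and 10.34 to 11.99 in WT EBs. Of these 5 of 5 were called lower in KO, where 1.28% of all genes were. So were 2 of 4 cardiac and 3 of 8 fibroblast markers, while 4 of 6 germ cell markers were called higher. Of the 5 neural and 5 endoderm markers none was called in either direction. In bulk RNA a smaller share of cells that express L1td1 and less L1td1 RNA in each cell cannot be told apart, and what part the makeup of the EBs had in the difference was not tested.

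Lin28a, the LIN28 gene that ESCs are known for, fell by more than 2-fold in KO cells between days 3 and 7. Its genotype difference was not called on any day. Its level on day 7 in WT EBs depended on 1 array.

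Lin28a had values of 9.96 and 9.78 in KO E14 ESCs and 10.23 and 10.40 in KO J1 ESCs, against 9.95 and 10.26 in WT J1 ESCs and 10.39 and 10.38 in WT V6.5 ESCs. On day 3 it had 10.56 and 10.57 in KO E14 EBs and 10.54 and 10.44 in KO J1 EBs, against 10.37 and 10.11 in WT J1 EBs and 10.54 and 10.47 in WT V6.5 EBs. The genotypes overlapped on both days, and the KO arrays of day 3 were the tightest group, within 10.44 to 10.57. On day 7 Lin28a had 9.00 and 9.07 in KO E14 EBs and 9.47 and 9.85 in KO J1 EBs, against 10.14 and 8.76 in WT J1 EBs and 10.00 and 10.34 in WT V6.5 EBs. All KO arrays of day 7 lay below 3 of the 4 WT arrays, and the remaining WT array, replicate 2 of J1, was the lowest of all.

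The KO change of Lin28a between days 3 and 7 was -1.18 (SE 0.216, interval -1.63 to -0.74, limma adjusted p = 7.6e-04). Only 0.351% of genes were called lower in this comparison, and Lin28a ranked 44 of 19938 from the lowest. Without the KO E14 clone the change was -0.83 and was not called (adjusted p = 0.26), and it was called in the other 36 alternatives. The WT change over the same days was -0.56 (interval -1.01 to -0.11, adjusted p = 0.053), -0.72 without WT J1 replicate 1 and -0.23 without replicate 2. The difference between the KO and WT changes was -0.62 (interval -1.25 to 0.01, limma adjusted p = 0.29). Without WT J1 replicate 2 that difference was -0.95 with an adjusted p of 0.0066, still under 2-fold, and without replicate 1 it was -0.46.

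The KO minus WT difference of Lin28a was -0.15 on day 0 (interval -0.67 to 0.37, adjusted p = 0.9), 0.16 on day 3 (interval -0.36 to 0.68, adjusted p = 0.92) and -0.46 on day 7 (interval -0.99 to 0.06, adjusted p = 0.25 by limma). Without replicate 2 of WT J1 the day 7 difference was -0.79 with an adjusted p of 0.0032, still under 2-fold, and without replicate 1 it was -0.30 with an adjusted p of 0.5. Within J1 the day 7 difference was 0.21 over both WT arrays, -0.48 without WT replicate 2 and 0.90 without WT replicate 1, so its sign depended on which array was kept. No line difference of Lin28a was called on any day, in comparisons that called 0.396% and 0.0451% of genes between the KO clones and 0.953% and 0.637% between the WT clones on days 0 and 3. The E14 KO minus J1 KO difference on day 7 was -0.63 (adjusted p = 0.29, with 0.998% of genes called). The V6.5 WT minus J1 WT difference was 0.72 (adjusted p = 0.16, with 0.993% called), and it became 1.41 and was called (adjusted p = 7.0e-05) without WT J1 replicate 1. Without replicate 2 it was 0.03 (adjusted p = 0.95).

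**Figure D3:**
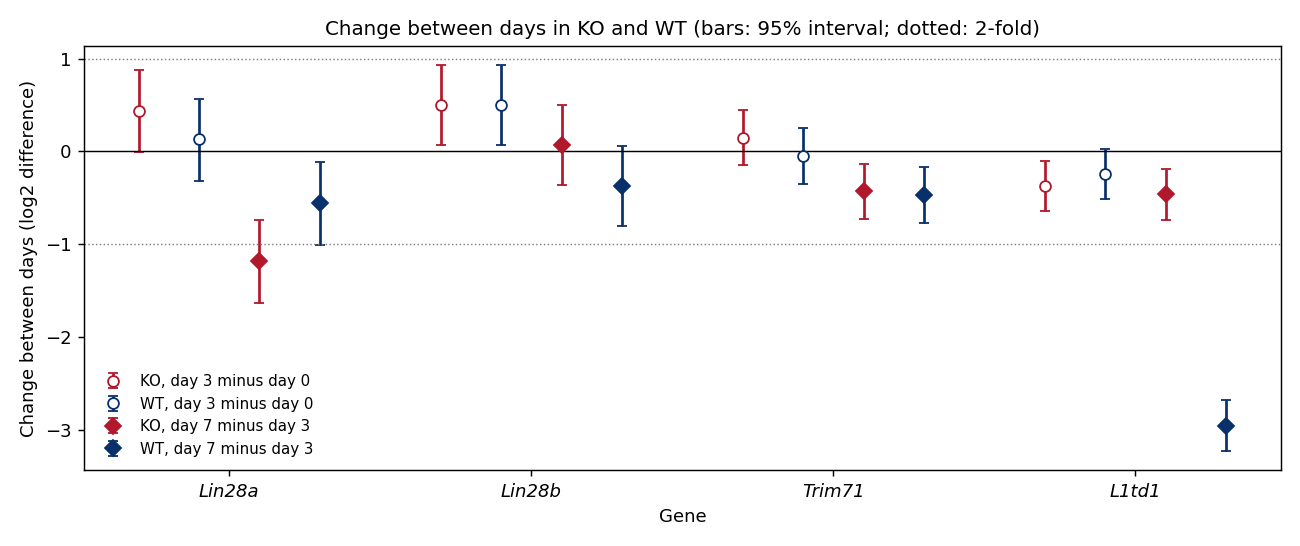
Log2 change between days (vertical axis) of each gene (horizontal axis) in KO (red) and WT (blue), with open circles for day 3 minus day 0 and filled diamonds for day 7 minus day 3; bars are 95% intervals of the model and dotted lines mark 2-fold. Between days 3 and 7 Lin28a changed by -1.18 in KO and -0.56 in WT, and L1td1 by -0.46 in KO and -2.96 in WT.

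The genes whose profile was most like that of Lin28a were Mthfd1l (r = 0.91 over 24 arrays), a mitochondrial enzyme of folate metabolism, the RNA-binding protein gene Celf1 (0.87), Hdgf (0.86), a growth factor gene, and Fkbp1a (0.86), an immunophilin gene. None of the 4 was called different between genotypes on day 7, where their differences lay between -0.18 and -0.04. These genes were picked by likeness over the same arrays, so their differences are a description. Lin28a correlated at 0.77 with Trim71, 0.30 with L1td1 and 0.30 with its paralogue Lin28b. WT J1 replicate 2 of day 7 was the lowest of the 24 arrays in both Lin28a (8.76) and Trim71 (9.45). How far these correlations rest on that array was not tested.

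Lin28b, the paralogue of Lin28a, was not called in any comparison of genotypes or days. It had values of 8.58 and 8.11 in KO E14 ESCs and 8.78 and 8.64 in KO J1 ESCs, against 8.97 and 9.01 in WT J1 ESCs and 8.80 and 8.91 in WT V6.5 ESCs. All KO arrays of day 0 thus lay below all WT arrays, by 0.39 on average (interval of the KO minus WT difference -0.90 to 0.11, limma adjusted p = 0.56). The highest KO array (8.78) and the lowest WT array (8.80) nearly touched, and 11.3% of all genes had non-overlapping ranges on day 0.

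On day 3 Lin28b had 8.76 and 8.76 in KO E14 EBs and 9.35 and 9.25 in KO J1 EBs, against 9.31 and 9.20 in WT J1 EBs and 9.55 and 9.64 in WT V6.5 EBs. On day 7 it had 8.65 and 9.07 in KO E14 EBs and 9.37 and 9.33 in KO J1 EBs, against 9.94 and 8.48 in WT J1 EBs and 8.80 and 9.02 in WT V6.5 EBs. The genotypes overlapped on both days, and the WT J1 arrays of day 7 held both the highest and the lowest value of that day.

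Lin28b was above its day 0 level on day 3 by 0.50 in KO cells (interval 0.07 to 0.93, adjusted p = 0.18) and by 0.50 in WT cells (interval 0.07 to 0.93, adjusted p = 0.14). The day 7 minus day 0 change was 0.58 in KO cells (interval 0.15 to 1.01, adjusted p = 0.06) and 0.14 in WT cells (interval -0.29 to 0.57, adjusted p = 0.67). The WT change was -0.17 without WT J1 replicate 1 and 0.35 without replicate 2. The KO change of Lin28a over days 0 to 7 was -0.75 (interval -1.19 to -0.30, adjusted p = 0.018, under 2-fold). The KO change minus the WT change of Lin28b over days 3 to 7 was 0.44 (adjusted p = 0.48). It was 0.75 with an adjusted p of 0.021, under 2-fold, without WT J1 replicate 1, and 0.23 without replicate 2. The KO minus WT difference of Lin28b was -0.39 on day 3 (adjusted p = 0.58) and 0.05 on day 7 (adjusted p = 0.93). The day 7 value was -0.16 without WT J1 replicate 2 and 0.36 without replicate 1, with adjusted p-values of 0.73 and 0.2. The V6.5 WT minus J1 WT difference of Lin28b on day 7 was -0.30. It was -1.03 and called (adjusted p = 0.0012) without WT J1 replicate 2, and 0.43 (adjusted p = 0.17) without replicate 1, so its sign depended on which array was kept. Between the KO clones, E14 minus J1 was -0.36, -0.55 and -0.49 on days 0, 3 and 7, each with an adjusted p of 0.5 or more by limma.

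The nearest profiles to Lin28b were those of Cyp39a1 (r = 0.85 over 24 arrays), an oxysterol hydroxylase gene, Plxna3 (0.84), a semaphorin receptor gene, Ptbp2 (0.82), a splicing regulator of neurons, and Mapk12 (0.82), a stress-activated kinase gene. No genotype difference of these 4 genes was called on day 7, which is a description, as they were picked over the same arrays. Lin28b correlated at -0.18 with L1td1, -0.02 with Pou5f1 and 0.11 with Trim71. WT J1 replicate 1 of day 7 held its highest value of the 24 arrays (9.94).

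Trim71 had the narrowest range of the 4 genes over the 24 arrays, 1.46, compared with 1.81 for Lin28a, 1.83 for Lin28b and 3.67 for L1td1. It had values of 10.69 and 10.57 in KO E14 ESCs and 10.79 and 10.72 in KO J1 ESCs, against 10.39 and 10.46 in WT J1 ESCs and 10.91 and 10.82 in WT V6.5 ESCs. On day 3 it had 10.90 and 10.81 in KO E14 EBs and 10.81 and 10.84 in KO J1 EBs, against 10.61 and 10.44 in WT J1 EBs and 10.85 and 10.48 in WT V6.5 EBs. The genotypes overlapped on both days, and on day 0 the WT clones lay on either side of all KO arrays. On day 7 Trim71 had 10.33 and 10.32 in KO E14 EBs and 10.33 and 10.65 in KO J1 EBs, against 10.40 and 9.45 in WT J1 EBs and 10.36 and 10.30 in WT V6.5 EBs. Of these 8 arrays 6 lay within 10.30 to 10.40, with KO J1 replicate 2 above and WT J1 replicate 2 below.

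The KO minus WT difference of Trim71 was 0.05, 0.25 and 0.28 on days 0, 3 and 7, with 95% intervals of -0.31 to 0.40, -0.11 to 0.60 and -0.07 to 0.64, and limma adjusted p-values of 0.96, 0.66 and 0.31. Without WT J1 replicate 1 the day 7 difference was 0.41 (adjusted p = 0.094), and without replicate 2 it was 0.08 (adjusted p = 0.8). In the line J1 the day 7 difference was 0.57 (interval 0.13 to 1.00, adjusted p = 0.076). It was 1.04 and called without WT J1 replicate 1 (adjusted p = 1.4e-04), and 0.09 without WT J1 replicate 2. Over the whole course Trim71 changed by -0.28 in KO cells (adjusted p = 0.22) and by -0.52 in WT cells (adjusted p = 0.0066), the WT change being under 2-fold. It was -0.65 without WT J1 replicate 1 and -0.31 without replicate 2. In WT cells 36.6% of all genes passed the p threshold over these days. The difference between these changes was 0.24 (interval -0.19 to 0.66, adjusted p = 0.61), 0.37 without WT J1 replicate 1 and 0.03 without replicate 2.

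Trim71 was most alike to Sall4 (r = 0.94 over 24 arrays), a zinc finger transcription factor of ESCs, and next to Xpo6 (0.92), an exportin gene, Cad (0.90), which encodes the enzyme that starts pyrimidine synthesis, and Mcm4 (0.89), a subunit of the replicative helicase. The day 7 differences of these 4 genes between genotypes were 0.16 to 0.43, and none was called. This too is a description of genes picked over the same arrays. Trim71 correlated at 0.73 with Pou5f1 and 0.62 with L1td1.

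**Figure D4:**
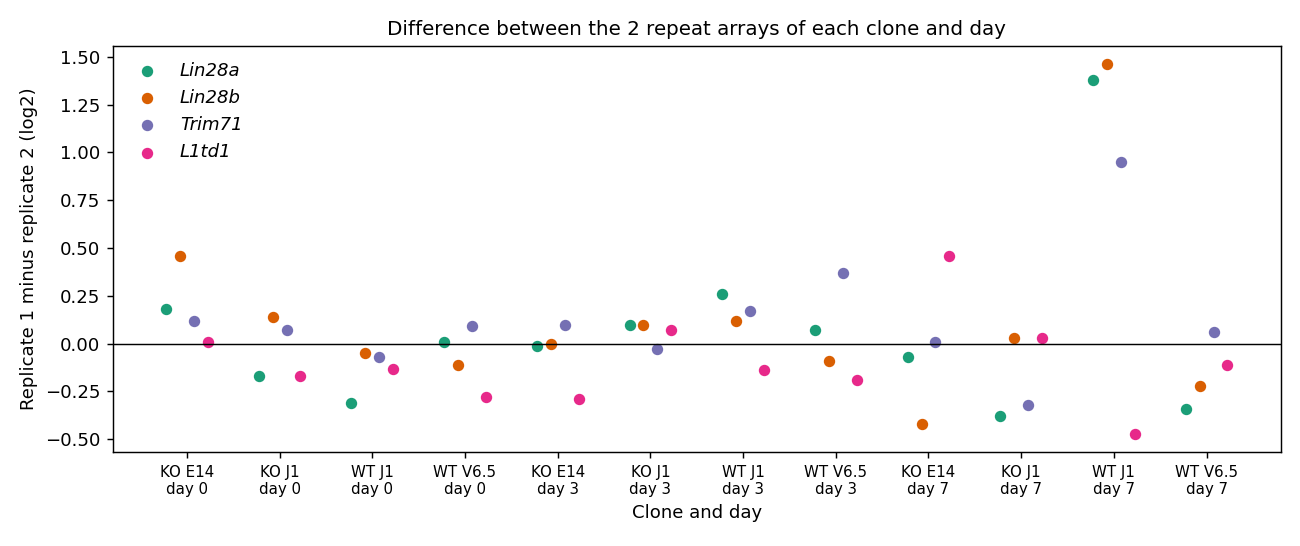
Replicate 1 minus replicate 2, as a log2 difference (vertical axis), for each clone and day (horizontal axis) and each of the 4 genes. The pair of WT J1 arrays on day 7 differed by 1.38 in Lin28a, 1.46 in Lin28b and 0.95 in Trim71, each the largest repeat difference of that gene, and by -0.47 in L1td1.

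The 2 members that were called between days, Lin28a and L1td1, are shown with their promoters. The sequences are those of RefSeq, build GRCm38.p6, and run from 250 bases before to 50 after the start that its promoter table uses, 5′ to 3′ on the gene's strand. For Lin28a and Lin28b that start is not the outermost end of the annotated gene. The Lin28a promoter is chr4:134018767-134019066 on the minus strand and the L1td1 promoter chr4:98726504-98726803 on the plus strand, and capitals mark CpG dinucleotides.
Lin28a promoter: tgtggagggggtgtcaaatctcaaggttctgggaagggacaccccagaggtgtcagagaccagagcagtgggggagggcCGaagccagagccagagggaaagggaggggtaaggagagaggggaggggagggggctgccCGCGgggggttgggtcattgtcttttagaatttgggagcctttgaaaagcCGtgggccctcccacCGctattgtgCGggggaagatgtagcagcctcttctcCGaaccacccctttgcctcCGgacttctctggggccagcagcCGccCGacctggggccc
L1td1 promoter: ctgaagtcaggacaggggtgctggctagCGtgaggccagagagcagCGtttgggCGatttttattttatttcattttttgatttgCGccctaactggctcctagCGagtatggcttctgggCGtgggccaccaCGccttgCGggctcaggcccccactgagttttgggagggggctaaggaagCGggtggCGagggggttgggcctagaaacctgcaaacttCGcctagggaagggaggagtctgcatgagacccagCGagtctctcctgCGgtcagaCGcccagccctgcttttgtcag
The L1td1 promoter holds 14 CpG dinucleotides, that of Lin28a 10, that of Trim71 19 and that of Lin28b 8, and the median over 32851 promoters of the same length is 7. Of those promoters, 63.7% have fewer CpG dinucleotides than L1td1 and 56.5% have fewer than Lin28a. The octamer ATGCAAAT, searched on both strands, occurs in none of the 4 promoters and in 1.74% of all. The motif ACAAAG, searched on both strands, occurs in none of the 4 and in 18.7% of all. No match says only that these letters are not in this window.

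The other genes of the let-7 pathway were described in lists. For the proteins that process, export, load, uridylate or degrade let-7 and its precursors, 20 of 21 genes were measured. None was called between genotypes on day 0, 3 or 7, where 0.552%, 0.757% and 4.36% of all genes were called. With shares this small, a list of this size may well hold no call. The median KO minus WT difference of the list was 0.01, 0.03 and 0.08, beside -0.03, -0.00 and -0.04 over all genes. Prkra, which encodes the Dicer partner PACT, had the largest difference, with 8.14 ± 0.21 in KO EBs and 9.05 ± 0.17 in WT EBs on day 7 (SD, n = 4 each). That is a difference of -0.90 (SE 0.163, limma adjusted p = 3.8e-04), just under 2-fold. Tarbp2, the other Dicer partner, had 9.45 ± 0.19 in KO EBs and 8.98 ± 0.03 in WT EBs on day 7, a difference of 0.47 (limma adjusted p = 0.017). On days 0 and 3 the largest differences were 0.36 for Ago3 and -0.80 for Prkra. Over days 0 to 7, none of the 20 genes was called in KO cells and 2 were called in WT cells, Tut4, which encodes the terminal uridylyltransferase that LIN28A recruits to let-7 precursors, and Prkra. Tut4 changed by 0.87 in KO cells and 1.24 in WT cells, and Prkra by 0.59 in KO cells and 1.17 in WT cells. The difference between the genotypes' changes was -0.37 for Tut4 (adjusted p = 0.28) and -0.58 for Prkra (adjusted p = 0.071). In all, 2.47% of genes were called over these days in KO cells and 8.98% in WT cells.

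Of the 12 let-7 precursor genes 10 had a probe set of their own. The array measures their precursors or primary transcripts, not the mature microRNAs. None was called between genotypes on any day, where 0.552%, 0.757% and 4.36% of all genes were called on days 0, 3 and 7. With shares this small, a list of 10 genes may well hold no call. The list's median difference was -0.09, -0.02 and 0.02 on these days. Over genotypes and days, the means of Mirlet7a-2, Mirlet7c-1 and Mirlet7f-2 were at most 4.89, 3.97 and 4.11. These lay below the lower quartile of every array (5.53 to 5.73), as did Mirlet7f-1 in KO ESCs (4.90) and WT ESCs (5.34). The means of Mirlet7g in KO ESCs (5.46) and of Mir98 in WT EBs of day 3 (5.46) were below it too. Differences in such low values may be missed. Mirlet7d had a mean of 7.43 ± 0.29, 8.52 ± 0.24 and 8.65 ± 0.13 in KO cells on days 0, 3 and 7, against 8.00 ± 0.48, 8.78 ± 0.36 and 8.59 ± 0.55 in WT cells (SD, n = 4 each). Mirlet7d was called higher in KO cells by 1.09 on day 3 (limma adjusted p = 0.0038) and by 1.22 on day 7 (limma adjusted p = 5.8e-04), both over day 0, where 0.562% and 2.05% of genes were called higher. Its WT change was 0.77 on day 3 and 0.59 on day 7, and the difference between the genotypes' changes over days 0 to 7 was 0.63 (adjusted p = 0.28). Mirlet7f-1 was called higher in KO cells on day 7 than on day 0, by 1.35 (limma adjusted p = 0.0098), with a WT change of 0.48 and a difference between changes of 0.88 (adjusted p = 0.35). None of these calls held without the KO E14 clone, where the values were 0.75 and 0.93 for Mirlet7d and 0.50 for Mirlet7f-1. The day 3 call of Mirlet7d was also lost without replicate 1 of KO E14 day 0 (1.00, just under 2-fold) or replicate 2 of KO E14 day 3 (0.99), and the call of Mirlet7f-1 without replicate 2 of KO E14 day 7 (1.06, adjusted p = 0.061). Mirlet7a-1, Mirlet7f-1 and Mirlet7d are neighbours on chromosome 13, and Mirlet7a-1 changed over days 0 to 7 by 0.20 in KO cells, which was not called.

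Of 27 let-7 target genes 22 were measured, and 1, 3 and 1 of them were called higher in KO on days 0, 3 and 7, with none called lower. Of all genes 0.461%, 0.667% and 3.08% were called higher on these days. The list's median difference was 0.04, 0.02 and -0.07. Ccnd2, which encodes cyclin D2, had 10.84 ± 0.24 in KO ESCs and 9.61 ± 0.30 in WT ESCs on day 0 (SD, n = 4 each), and it was called on all 3 days at 1.23, 1.66 and 1.13 (limma adjusted p = 0.0021, 8.1e-05 and 5.6e-04). The day 0 call of Ccnd2 was lost when the arrays of a clone were averaged (adjusted p = 0.098) and without the KO E14 clone (1.02) or the WT J1 clone (0.97). The day 7 call of Ccnd2 was lost without the KO E14 clone (0.87) or replicate 2 of its day 7 arrays (0.99). Hmga2, a chromatin protein of embryonic cells and a well-known let-7 target, had 10.30 ± 0.13 in KO EBs and 9.14 ± 0.16 in WT EBs on day 3, a difference of 1.17 (limma adjusted p = 5.0e-04). This call was lost when the arrays of a clone were averaged (adjusted p = 0.057). On day 7 the Hmga2 difference was 0.11. Plagl1, a zinc finger gene of the imprinted network, had 9.53 ± 0.23 in KO EBs and 7.95 ± 0.45 in WT EBs on day 3, a difference of 1.58 (limma adjusted p = 0.041). The call of Plagl1 was lost in 15 of 37 alternatives. These were the averaging of arrays, the replicate block, the filter on low values and the trended prior, the removal of the KO E14, KO J1 or WT V6.5 clone, and the removal of single arrays. The arrays were both replicates of KO E14 and of KO J1 on day 3, WT V6.5 replicate 1 and WT J1 replicate 2 of day 3, WT V6.5 replicate 2 of day 0 and KO E14 replicate 2 of day 7. Over these alternatives the Plagl1 difference was 1.38 to 1.68 and the limma adjusted p 0.05 to 0.35.

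Between days 3 and 7 Hmga2 changed in KO cells by 1.05, which was called, as 329 of 19938 genes were called higher. Plagl1 changed in KO cells by 0.97 (limma adjusted p = 0.079). In WT cells both were called higher on day 7, by 2.11 and 3.14, where 3.78% of genes were. The KO change minus the WT change over those days was -1.06 for Hmga2 (limma adjusted p = 0.0034) and -2.17 for Plagl1 (limma adjusted p = 0.0094). These were the 2 genes of the list called in that comparison, where 2.56% of all genes were called. Of all 19938 genes 239 were called lower in it. The Hmga2 call was lost without the KO E14 clone (-0.98, limma adjusted p = 0.085) or the WT V6.5 clone (-0.99, limma adjusted p = 0.082). Just under 2-fold, it was also lost without KO E14 day 7 replicate 1 (-0.95), WT J1 day 3 replicate 2 (-0.97) or WT V6.5 day 7 replicate 2 (-0.96). The Plagl1 call was lost without the KO E14, KO J1 or WT V6.5 clone (-1.97, -2.36 and -2.13). Its limma adjusted p was then 0.16, 0.065 and 0.17. Over days 0 to 7, 2 targets were called higher and none lower in KO cells, while 9 were called higher and 3 lower in WT cells. The background over these days was 2.05% higher and 0.421% lower among all genes in KO cells, and 5.09% higher and 3.89% lower in WT cells. The 3 that were lower in WT cells were Mycn (-2.06), Ccnd1 (-1.48) and Cdk6 (-1.18). The KO change minus the WT change over days 0 to 7 was called for 2 targets, where 3.38% of all genes were called. These were Mycn (1.11, limma adjusted p = 0.023) and Cdk6 (1.00, limma adjusted p = 0.04). For Ccnd1 it was 0.98 and not called (limma adjusted p = 0.06).

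Of 10 mRNAs described as TRIM71 targets 9 were measured. None was called between genotypes on day 0 or day 3, and Hoxa5 was called higher in KO on day 7. Of all genes 0.552%, 0.757% and 4.36% were called on days 0, 3 and 7, with 3.08% called higher on day 7. Hoxa5, a homeobox gene and also a known Polycomb target, had 7.09 ± 0.48 in KO EBs and 5.74 ± 0.20 in WT EBs (SD, n = 4 each), a difference of 1.35 (SE 0.192, limma adjusted p = 2.2e-05). Hoxa5 had low values: its WT mean lay close to the lower quartile of the arrays (5.53 to 5.73). Its highest KO value on day 7 (7.43) was under 7.47, the median over the 19938 genes that the filter on low values used. It lay above the array medians over all probe sets, 6.96 to 7.14, which like these quartiles include probe sets without a gene. The list's median difference was 0.13, -0.02 and -0.14 on days 0, 3 and 7. Of the other members named by rule, Lats2, a kinase of the Hippo pathway, had differences of 0.28 and 0.51 on days 0 and 3, and Egr1, an immediate early transcription factor gene, had 0.39 on day 0.

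Of 32 other genes for RNA-binding proteins of ESCs and development 30 were measured, and 2, 1 and 6 of them were called higher in KO on days 0, 3 and 7, with none lower, beside the 0.461%, 0.667% and 3.08% of all genes called higher. Their median difference was -0.03, 0.10 and -0.02. On day 7 the largest was Dppa5a, a KH-domain protein of pluripotent cells, with 13.34 ± 0.15 in KO EBs and 9.06 ± 0.81 in WT EBs (SD, n = 4 each), a difference of 4.27 (limma adjusted p = 1.7e-10). Dazl, a translational regulator of germ cells, had 7.99 ± 0.62 in KO EBs and 5.45 ± 0.07 in WT EBs, a difference of 2.54 (limma adjusted p = 6.4e-07). The splicing regulators Mbnl3 and Rbm47 were called as well, at 1.92 and 1.81. On day 0 the called genes were Khdc3 (1.99), a gene of the oocyte and early embryo, and Dazl (1.34), and on day 3 Dppa5a (1.61). The day 0 call of Dazl was lost when the arrays of a clone were averaged (adjusted p = 0.25) and without the KO E14, WT J1 or WT V6.5 clone (0.60, 1.11 and 1.58), and the day 3 call of Dppa5a without the KO E14 clone (1.48). Among germ cell markers, 2, 2 and 4 of 6 were called higher in KO on days 0, 3 and 7, beside the same shares of all genes, and Dazl is one of that list. Fibroblast markers averaged 8.23 to 9.46 in KO ESC arrays and 7.69 to 8.12 in WT ESC arrays on day 0. Of these 8 genes 3 were called higher in KO, where 0.461% of all genes were. On day 3 they averaged 7.47 to 7.59 in KO EBs and 7.10 to 7.49 in WT EBs. Their part in the day 0 differences and in the changes from day 0 was not tested.

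**Figure D5:**
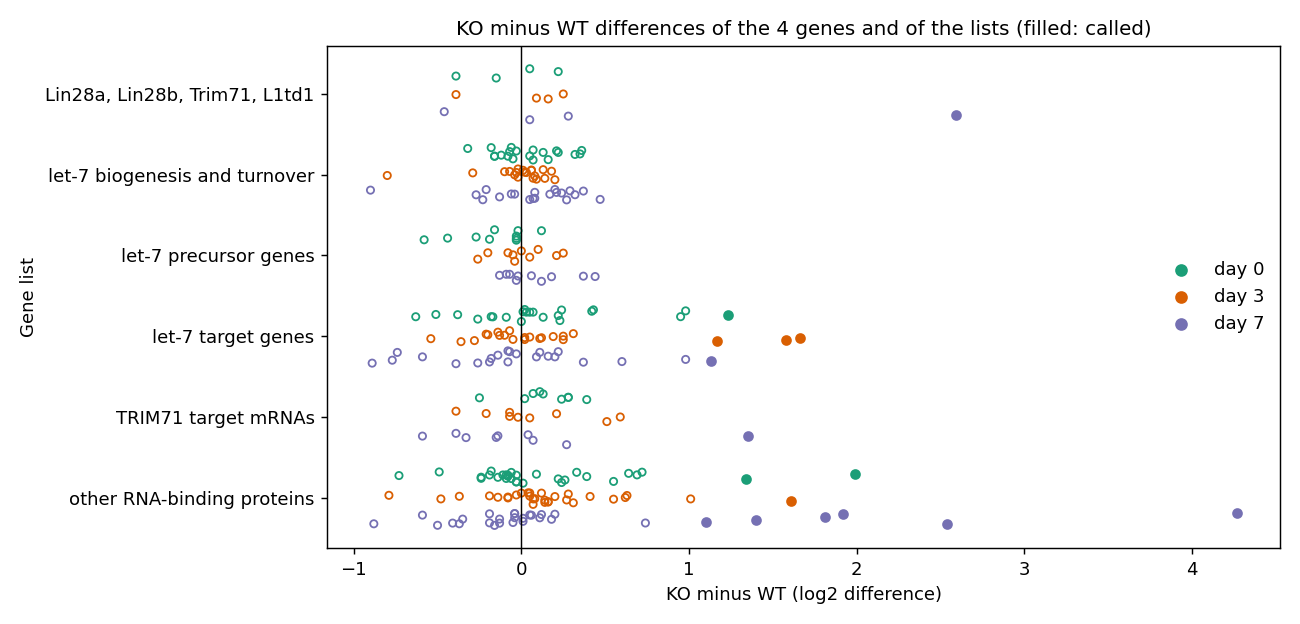
KO minus WT log2 difference (horizontal axis) of each measured gene in the 4 genes and the 5 lists (vertical axis), with days 0, 3 and 7 from top to bottom within a list; filled points were called. On day 7 L1td1 lay at 2.59. No gene of let-7 biogenesis or let-7 precursors was called on days 0, 3 and 7, where 0.552%, 0.757% and 4.36% of all genes were called.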

How the data were processed

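The deposited table holds log2 values of Affymetrix Mouse Gene 1.0 ST arrays that the authors made with RMA in Affymetrix Power Tools, as recorded in the submitters' processing notes. In RMA, background is corrected, arrays are quantile-normalized and probes are summarised, so a value is relative to its probe set, and only differences of a probe set between arrays were read. Versions, build and annotation were not given in the sources used here. Of 35556 probe sets, 21789 had 1 gene symbol in the platform annotation, 1621 had several and 12146 were not listed. The highest-mean probe set represented each of 19938 genes. Array medians were 6.96 to 7.14, and the number of arrays limits the precision.

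limma 3.58.1 (R 4.3.3) fitted 6 genotype-by-day means with the clone as a random block (correlation 0.161, 18 residual degrees of freedom), and 12 line-by-genotype-by-day means without a block (12 degrees of freedom) for comparisons of lines. A call needed a Benjamini-Hochberg adjusted p below 0.05 over all genes and a 2-fold change. The scripts were tested on simulated data. Named genes were the 4 members, Eed, Pou5f1, Nanog and Sox2, the 4 genes with the highest Pearson r to each member (predicted genes passed over), and in each list up to 4 called genes of day 7 and 3 of days 0 and 3 with the largest difference, or the 2 largest if none was called; any other gene was named after its values were seen. The members and lists were chosen with earlier results of these data known. Alternatives changed the block, the averaging of repeat arrays, normalization, filter, probe set rule, prior, array weights and fold minimum, and left out each array or clone in turn. The labels do not say whether arrays of the same replicate number share a batch. Deviations of same-numbered arrays correlated at -0.4 to 0.47 over 66 pairs of groups (median 0.06, above 0.1 in 30 pairs). That check does not settle the question, and a replicate block was among the alternatives.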

Additional observations from a re-analysis of the deposited data

Results flagged for a closer look

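Among the 24 groups of 4 arrays examined for the 4 genes (6 per gene), 2 had an array far from the rest. Chance gives about 1 in 20 groups where the 4 arrays are independent, and here they are repeat arrays of 2 clones. A count of 2 in 24 is near that rate. Both groups were those of Trim71 on day 7. In KO EBs the gap between KO J1 replicate 2 (10.65) and the next array was 0.957 of the whole range. In WT EBs the gap between WT J1 replicate 2 (9.45) and the next array was 0.894 of the range.

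The change of L1td1 differed between genotypes by a test of the difference itself (limma, 24 arrays). The KO change minus the WT change was 2.49 over days 3 to 7 and 2.36 over days 0 to 7, and on day 7 all 4 KO arrays lay above all 4 WT arrays.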

How the results depend on the processing

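For the 4 genes, 84 results were recomputed under up to 37 alternatives, 2928 values in all. Of these 2867 kept both direction and side of the call threshold, 1 lost its call (Lin28a in KO between days 3 and 7), 9 gained one, and 51 values of 20 results turned sign with no call before or after. The KO minus WT differences that turned were those of Lin28a on day 0 (0.07 without KO E14), Trim71 on day 0 (-0.01 with array weights, -0.02 without KO J1, -0.18 without WT J1, -0.01 to 0.11 without single arrays), L1td1 on day 3 (-0.05 without WT V6.5) and Lin28b on day 7 (-0.00 with quantile normalization, -0.20 without KO J1, -0.10 without WT V6.5, -0.16 to 0.36 without single arrays). The differences in change that turned were those of Lin28b over days 0 to 3 (0.02 with quantile normalization, 0.09 without KO E14, 0.24 without WT V6.5, -0.10 to 0.08 without single arrays), L1td1 over days 0 to 3 (0.09 without WT J1) and Trim71 over days 3 to 7 (-0.01 with quantile normalization, -0.00 with array weights, -0.06 without KO J1, -0.10 without WT J1, -0.17 to 0.17 without single arrays). The WT change of Trim71 over days 0 to 3 became 0.01 with quantile normalization, 0.10 without WT V6.5 and -0.11 to 0.02 without single arrays, and that of Lin28b over days 0 to 7 -0.17 to 0.35. Within J1, with single arrays left out, Lin28b ranged over -0.01 to 0.10 on day 3 (-0.01 with quantile normalization) and -0.59 to 0.87 on day 7, and Lin28a over -0.48 to 0.90 on day 7. Between the KO clones the ranges were -0.07 to 0.10 for L1td1 on day 0, -0.02 to 0.27 for L1td1 on day 3 and -0.02 to 0.08 for Trim71 on day 3. Between the WT clones they were -0.01 to 0.27 for L1td1 on day 0, -0.05 to 0.32 for Trim71 on day 3, and on day 7 -1.03 to 0.43 for Lin28b, -0.07 to 0.88 for Trim71 and -0.36 to 0.11 for L1td1 (0.00 with quantile normalization). The KO minus WT difference of L1td1 on day 7 lay within 2.51 to 2.74 when single arrays were left out and within 2.37 to 2.80 otherwise, with adjusted p-values up to 4.3e-05. With the replicate block it was 2.59 (adjusted p = 1.2e-10 by limma), and the replicate block changed no call of the 4 genes; in the lists it lost that of Plagl1 on day 3 (adjusted p = 0.053). Each genotype rests on 2 clones, and each value of the 4 genes on 1 probe set. The genes called in the whole table moved more: on day 0, 110 genes became 402 with no fold minimum, 22 with repeat arrays averaged, 171 with array weights, 47 without the KO E14 clone, 216 without KO J1 and 272 without WT J1, and 71 to 122 with single arrays left out. On day 3, 151 became 434 with no fold minimum, 43 with arrays averaged, 53 without KO E14 and 247 without WT J1. On day 7, 870 became 3250 with no fold minimum. For the difference in change over days 0 to 7, 673 became 1617 with no fold minimum, 371 without KO E14, 1013 without WT J1 and 313 without WT V6.5. The causes were not tested, apart from the fold minimum, which only removes genes by construction.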
